A study of Mus musculus with 6 samples.

Results

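Ly6/uPAR proteins are small, cysteine-rich surface or secreted proteins that include the urokinase receptor, the complement inhibitor CD59 and the Ly6 antigens used to mark leukocytes and stem cells. Expression of 10 genes of this family was examined in a mouse colorectal tumor line and a mutant of it. The members were chosen by symbol: Lypd5, Lypd3, Lypd6b, Ly6a, Ly6c1, Ly6d, Ly6e, Ly6k, Plaur and Cd59a, which are 10 of the 24346 gene symbols with an expression value. Of the 10, 5 (Lypd5, Plaur, Ly6e, Ly6a and Ly6c1) had a mean of 1 or more over the 6 samples in FPKM, the number of fragments scaled by exon length and by the size of the library, and are called expressed here. The other 5 were low, and 2 of them, Lypd3 and Ly6k, were listed at 0 in every sample. The choice of Lypd5 rested on its difference between these same samples, so the values of the members are given as a description, without a p-value.

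RNA was sequenced from parental CT26.mMR1 cells (3 samples) and from M8 cells (3 samples). CT26 is a mouse colorectal tumor line, and both groups carry a retrovirally introduced mouse MR1 gene, which encodes the molecule that presents metabolites to MAIT cells. M8 descends from CT26.mMR1 cells exposed to the mutagen ENU, was cloned by limiting dilution and was picked for its stronger activation of MAIT reporter cells and its high surface MR1, so the mutant group is 1 clone. No other treatment is labelled, the titles of both groups carry CT26_cl9, and the study calls the samples biological replicates, but since the labels do not tie them to separate cultures, the p-values below measure the spread between these samples.

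The family shares a fold in which finger-like loops extend from a core held by disulfide bonds between conserved cysteines. Most members are held in the outer leaflet of the membrane by a glycosylphosphatidylinositol (GPI) anchor, and several are secreted. In the mouse, many Ly6 genes lie in a cluster on chromosome 15, and many genes of the urokinase receptor type lie on chromosome 7.

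The feature by which the family is recognised stands near the end of such a domain, as a pair of cysteines, a short loop, a further cysteine and an asparagine. All 10 members had it in their coding sequence, as 2 adjacent cysteine codons (TGC or TGT), 4 codons of any kind, a cysteine codon and an asparagine codon (AAC or AAT), read in frame. The sequences are shown because they are what these genes have in common at the level of DNA, whereas their mean RNA levels ranged from 0 to 945.4 FPKM. They are coding strands of GENCODE vM21 transcripts (GRCm38), 5′ to 3′, with the cysteine and asparagine codons in capitals.
Lypd5: TGCTGCgagggccacctcTGCAAC
Plaur, codons 191 to 198: TGTTGCaactacacccacTGCAAT
Plaur, codons 287 to 294: TGCTGCcacggcagcggcTGTAAC
Lypd3: TGCTGTcagggcccccgcTGTAAC
Lypd6b: TGCTGTgaaggaatgatcTGCAAC
Cd59a: TGCTGCcagtttaacttgTGTAAC
Ly6d: TGCTGCcagactgacctaTGCAAC
Ly6k: TGCTGTcaatgggactcaTGTAAT
Ly6e: TGCTGCcaaagctccttcTGCAAC
Ly6a: TGTTGCcaggaagacctcTGCAAT
Ly6c1: TGTTGCagcgaagacctcTGCAAT

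The match lay at codons 205 to 212 of 256 in Lypd5, and at codons 98 to 105 of both Ly6e (136 codons) and Ly6a (134 codons). In Lypd3 it lay at codons 217 to 224 of 363. Plaur, whose 327 codons include 29 for cysteine, held it at codons 191 to 198 and 287 to 294. The same pattern was found in 24 of 30 other family genes with a complete coding sequence (80.0%) and in 63 of all 21549 genes with one (0.292%). The match is a description of these letters and says nothing of expression.

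In both lines Ly6e RNA was the most abundant of the 10, followed by Ly6a, Plaur, Ly6c1 and Lypd5. FPKM is scaled by transcript length, so the levels can be set side by side. Averaged over the 6 samples, Ly6e stood at 945.4 FPKM and at the 99.1 percentile of the 10597 genes that reached the same limit of 1 FPKM. Ly6a stood 3.2-fold lower at 295.5 FPKM, Plaur a further 4.14-fold lower at 71.43 FPKM and Ly6c1 a further 1.5-fold lower at 47.59 FPKM. Lypd5, at 8.998 FPKM, was at the 33.3 percentile. Each of these 5 neighbours in the order was apart from the next in every sample. The nearest members on either side of the limit of 1 FPKM were Lypd5 and Ly6d (0.0868 FPKM), and the order among the 5 low members was not resolved, since their samples overlapped.

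The 10 members summed to 1303, 1348 and 1339 FPKM in the parental samples and to 1398, 1410 and 1417 FPKM in the M8 samples, which is 0.214% to 0.228% of all FPKM in a sample. Ly6e made up 66.9%, 67.5% and 67.7% of that sum in parental cells and 71.8%, 70.3% and 69.9% in M8. Ly6e thus made up most of the family total in both lines.

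**Figure D1:**
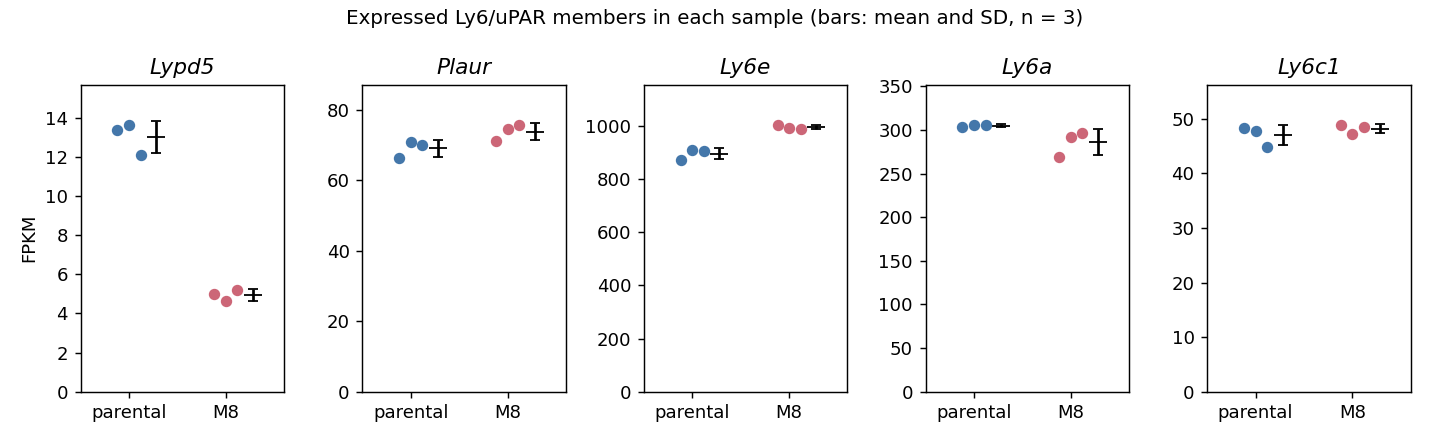
Expression in FPKM (vertical axis, a separate linear scale from 0 for each gene) of the 5 expressed members in each parental and M8 sample (points), with the group mean and SD beside them (n = 3). Lypd5 lies between 12.1 and 13.6 FPKM in parental cells and between 4.63 and 5.19 FPKM in M8, whereas the groups of the other 4 genes lie close together or overlap.

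Lypd5 encodes a member of the urokinase receptor type whose function is little characterised. Its FPKM was 13.4, 13.6 and 12.1 in the parental samples and 5.01, 4.63 and 5.19 in the M8 samples. All M8 samples lay below all parental samples, with a gap wider than the range within either line. The parental mean was 13.05 ± 0.813 FPKM and the M8 mean 4.95 ± 0.286 FPKM (SD, n = 3 each), a ratio of 0.379. On the scale of log2(FPKM + 1), on which all fold changes below are given and which understates the change of low genes, Lypd5 was lower by a log2 fold change of -1.24 (standard error 0.066). This was the 7th lowest log2 fold change among the 10597 genes tested, as the choice of this gene implies.

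The depth of the libraries was recovered from the steps between low FPKM values of genes with a single transcript, and came to an estimated 23.8 to 26.8 M mapped reads (M, 1e6) in parental samples and 19.4 to 21.9 M in M8 samples. At that depth Lypd5, with 1 annotated transcript of 2239 bases in 5 exons, corresponds to an estimated 681.9, 662.3 and 662.6 reads in parental samples and 223.9, 183.2 and 224.4 reads in M8 samples. Lypd5 RNA therefore remained well measured in M8. The estimates depend on the assumed effective length and are approximate.

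Lypd5 lies on chromosome 7 at chr7:24349196-24354247, plus strand (GRCm38). The window from 250 bases before to 50 bases after its annotated start is given here because Lypd5 was the member with the greatest difference. It is RefSeq sequence (GRCm38.p6) at chr7:24348946-24349245, plus strand, and the capitals mark matches to an E-box (CACGTG) and a GC box (GGGCGG).
Lypd5 promoter: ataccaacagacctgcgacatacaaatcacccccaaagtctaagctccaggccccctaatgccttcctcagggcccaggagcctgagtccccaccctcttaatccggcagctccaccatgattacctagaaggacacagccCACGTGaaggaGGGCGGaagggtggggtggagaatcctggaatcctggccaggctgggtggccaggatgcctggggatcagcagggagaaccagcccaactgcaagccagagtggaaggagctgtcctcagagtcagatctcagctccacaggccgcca

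The E-box began 109 bases and the GC box 98 bases before the start site. Both strands were searched. Of 32851 RefSeq promoter windows of 300 bases, 7.15% held CACGTG and 35.7% held GGGCGG. No match to an AP-1 site (TGANTCA, in 7.81% of the windows), a GAS (TTCNNNGAA, 8.3%), the core of an ISRE (3.44%), an NF-kB site (20.7%) or TATAAA (13.6%) was found in this window. The window had a GC content of 59.7% and 5 CG pairs, against medians of 52.7% and 7 over all windows. These matches are a description of the reference sequence, and the sequence of M8 itself was not analysed here.

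Plaur encodes the urokinase receptor, which binds urokinase at the cell surface and so focuses plasminogen activation there. It lies 111.7 kb from Lypd5 on the same strand (chr7:24460937-24475970). Its FPKM was 66.4, 70.9 and 70.0 in parental samples and 71.0, 74.5 and 75.7 in M8 samples. The M8 samples lay above the parental samples, but parental 2 and M8 1 differed by little. The log2 fold change was 0.093 (standard error 0.044), with means of 69.1 ± 2.41 and 73.7 ± 2.41 FPKM (SD, n = 3 each). It moved to 0.032 under upper-quartile scaling and to 0.010 under quantile normalization, so its size depended on how the samples were scaled. Lypd5 as a share of Plaur was 20.2%, 19.2% and 17.3% in parental samples and 7.06%, 6.21% and 6.86% in M8 samples.

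Ly6e encodes a widely expressed, GPI-anchored Ly6 protein that is known to be induced by interferon. Its FPKM was 872, 909 and 906 in parental samples and 1004, 991 and 990 in M8 samples. The groups did not overlap, and the M8 samples were close to each other, with means of 895.73 ± 20.9 and 995.11 ± 7.45 FPKM (SD, n = 3 each). The log2 fold change was 0.15 (standard error 0.038), a ratio of 1.11. It kept its direction under every scaling tried but was 0.115 with TPM (FPKM rescaled to one total per sample), 0.090 with upper-quartile scaling and 0.060 with quantile normalization.

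Ly6a encodes Sca-1, a GPI-anchored surface protein used to isolate mouse hematopoietic stem cells, and is also known as interferon-inducible. Its FPKM was 303, 306 and 306 in parental samples and 269, 292 and 297 in M8 samples. All M8 samples lay below the parental samples, and M8 1 was the lowest. The log2 fold change was -0.093 (standard error 0.045), with means of 304.93 ± 1.52 and 286.01 ± 15.1 FPKM (SD, n = 3 each). Without M8 1 it was -0.049, and under quantile normalization it was -0.195. The ratio of Ly6a to Ly6e was 0.348, 0.336 and 0.338 in parental samples and 0.268, 0.295 and 0.3 in M8 samples, so Ly6a was lower relative to Ly6e in every M8 sample. A ratio within a sample does not depend on the scaling by library size.

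Ly6c1 encodes an Ly6C antigen, known from monocytes and memory T cells. Its FPKM was 48.3, 47.8 and 44.9 in parental samples and 48.9, 47.2 and 48.5 in M8 samples, and the groups overlapped. The log2 fold change was 0.035 (standard error 0.044). Its sign turned under TPM (-0.0012), upper-quartile scaling (-0.025) and quantile normalization (-0.042), so no direction can be given for Ly6c1.

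**Figure D2:**
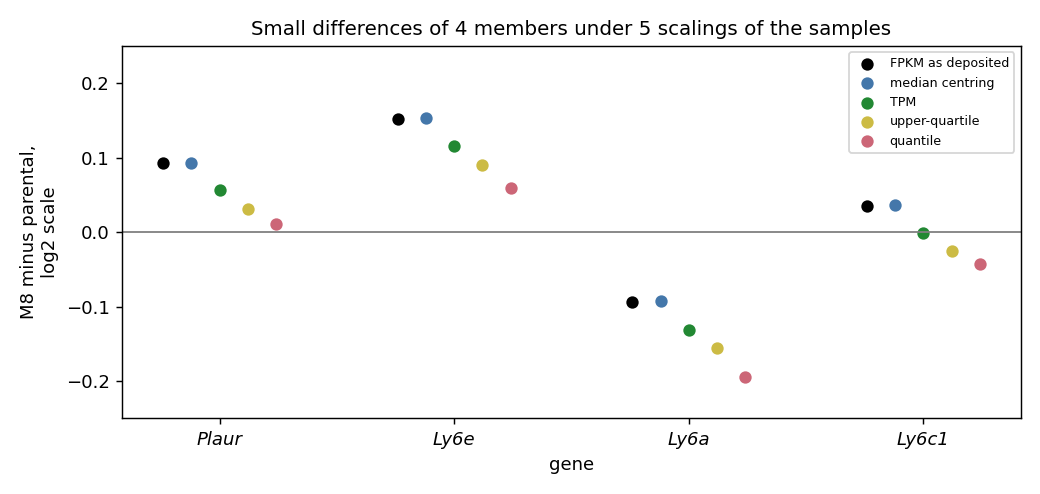
Difference between M8 and parental means on the log2 scale (vertical axis) for Plaur, Ly6e, Ly6a and Ly6c1 under 5 scalings of the samples (colours). Ly6e stays above 0 and Ly6a below 0 in each, Plaur falls to 0.010 under quantile normalization, and Ly6c1 changes sign.

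Ly6a, Ly6c1 and the neighbouring family gene Ly6c2 are close copies, and reads from one can be placed on another. The longest coding sequence of each gene was aligned over its full length, with gaps counted as mismatches. That of Ly6c1 was 80.7% identical to that of Ly6c2 and 66.7% identical to that of Ly6a. That of Ly6a was 81.6% identical to that of Ly6c2. The Ly6c1 sequence was the longest, with 441 bases, and its unmatched bases lower its percentages. Of the 393 coding bases of Ly6c2, 356 were identical in the alignment with Ly6c1 and 328 in that with Ly6a. Of the 100-base windows in a transcript, 13.0% of those in Ly6c1 occurred unchanged in Ly6c2, 20.3% of those in the less abundant Ly6c2 occurred in Ly6c1, and 2.44% of those in Ly6a occurred in Ly6c1. The levels of these genes, Ly6c2 most of all, and the ratio of Ly6c1 to Ly6c2 are therefore uncertain. The ratio of Ly6c1 to Ly6c2 ranged from 6.48 to 13.5 in parental samples and from 8.59 to 12.2 in M8 samples. Lypd5, Lypd3, Plaur, Lypd6b, Ly6d, Ly6k and Ly6e shared no window with another gene, and Cd59a shared 0.293% of its windows with its copy Cd59b.

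Of the 5 expressed members, 1 was past the threshold as higher (Ly6e) and 1 as lower (Lypd5), where the threshold was an adjusted p below 0.1 in limma. Ly6e was not past it under quantile normalization, and Ly6a was past it as lower under TPM, quantile and upper-quartile scaling. Lypd5 was past it in all 16 settings, which all draw on the samples by which it was chosen. Among all 10597 genes tested, 21.2% were higher and 16.5% lower, and 37.7% were past the threshold in either direction. M8 samples lay all above the parental samples for 2 members and all below for 2, against 24.8% and 20.4% of all genes tested and 45.2% in either direction. These calls and counts cover the contrast by which the members were chosen, and nothing is read from them. The median log2 fold change was 0.035 over the 5 members and 0.0069 over all genes tested. The balance over all genes depended on the scaling, with 2250 higher and 1745 lower for FPKM as deposited, 1652 and 2249 with TPM, and 1470 and 2769 with upper-quartile scaling.

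The 5 low members were at the limit of detection in both lines. Ly6d, known as an early marker of B lineage commitment and of keratinocytes, stood at 0.0812, 0.0856 and 0.0757 FPKM in parental samples and at 0.278, 0 and 0 FPKM in M8 samples. With 1 transcript of 744 bases, this corresponds to an estimated 1.1 reads in each parental sample and to 3.3 reads in M8 1. Cd59a, which blocks the membrane attack complex of complement, was listed at 0, 0.0542 and 0.0479 FPKM in parental samples and at 0 in all M8 samples. Lypd6b, known to modulate nicotinic acetylcholine receptors, had a value in M8 1 only (0.0436 FPKM). Lypd3, a surface protein of squamous epithelium, and Ly6k, known from testis, were listed at 0 in all 6 samples. No difference between the lines was detectable for these 5 at this depth.

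The nearest pattern to that of Lypd5 was measured as the root mean square difference over the 6 samples between log2(FPKM + 1) profiles, each centred on its own mean. Over the 8546 other genes that averaged 5 FPKM or more, the 5 closest were Aqp1 (0.134), Txnip (0.18), Phyhd1 (0.18), Dthd1 (0.206) and Avil (0.208). Aqp1, which encodes a water channel, stood at 7.93, 9.48 and 9.34 FPKM in parental samples and at 3.67, 3.32 and 4.13 FPKM in M8 samples. Txnip, which encodes an inhibitor of thioredoxin, stood at a far higher level, with 343.52, 353.71 and 363.57 FPKM in parental samples and 173.07, 179.44 and 204.26 FPKM in M8 samples.

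Phyhd1, which encodes a dioxygenase, went from 24.2 ± 1.48 to 11.7 ± 1.22 FPKM (SD, n = 3 each). Dthd1, named for a death domain, went from 6.85 ± 0.842 to 3.18 ± 0.103 FPKM. Avil, which encodes the actin-binding protein advillin, went from 17.1 ± 4.23 to 6.97 ± 1.01 FPKM and had a high value of 21.98 FPKM in parental 1. With a limit of 1 FPKM in place of 5, Bpifc (0.147) took the second place and Avil dropped out. The other expressed members were farther from Lypd5, at 0.579 (Ly6a), 0.639 (Ly6c1), 0.671 (Plaur) and 0.699 (Ly6e). Since the measure is dominated by the difference between the lines, it lists genes that differ by a like amount and says nothing of shared control.

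**Figure D3:**
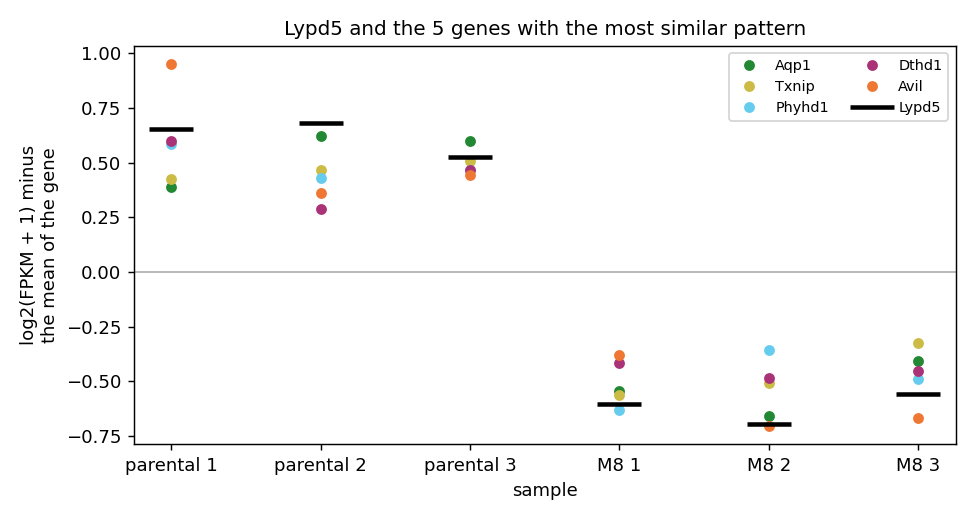
log2(FPKM + 1) minus the mean of each gene over the 6 samples (vertical axis) in each sample (horizontal axis), for Lypd5 (black bars) and the 5 genes with the smallest root mean square difference from it (coloured points). All 6 genes are above 0 in the 3 parental samples and below 0 in the 3 M8 samples.

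The other genes of the family were examined as a list of 34 symbols present in the files. Only 4 of them averaged 1 FPKM or more, and 16 were listed at 0 in every sample. Slurp1, a secreted Ly6 protein of keratinocytes, fell from 1.89 to 0.603 FPKM (log2 fold change -0.82, standard error 0.28, adjusted p = 0.0529 in limma). Its parental values were 2.70, 0.777 and 2.18 FPKM and its M8 values 0.140, 0.796 and 0.873 FPKM, so the groups overlapped. The adjusted p was 0.137 without parental 3, 0.174 without M8 1 and 0.147 with no filter on low values, and without parental 1 its mean was too low to be tested.

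The remaining 3 did not pass. Ly6c2 had 5.22 and 4.74 FPKM (adjusted p = 0.735 in limma), Lynx1, a modulator of nicotinic receptors, 6.19 and 5.63 FPKM (adjusted p = 0.365), and Lypd1 2.81 and 2.18 FPKM (log2 fold change -0.29, adjusted p = 0.227), in parental and M8 cells. Without M8 1, in which it was highest of the M8 samples, Lypd1 passed as lower (log2 fold change -0.49, adjusted p = 0.027 in limma). The list's median log2 fold change was -0.20, over these 4 genes.

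Lypd5, Plaur and Lypd3 lie in one stretch of chromosome 7, with Lypd3 (chr7:24636570-24641118, plus strand) 287.4 kb beyond the start of Lypd5. Within 500 kb of that start, 34 other genes were in the files and 15 were tested. Of the 15, 2 were higher, 3 were lower and 10 did not pass, with a median log2 fold change of -0.033, against 21.2% higher and 16.5% lower of all genes. The nearest tested gene, Kcnn4, a potassium channel gene 20.6 kb away, did not pass (log2 fold change 0.16, adjusted p = 0.195 in limma).

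Cadm4, a cell adhesion gene 132.8 kb away, fell from 4.69 to 2.85 FPKM (log2 fold change -0.56, standard error 0.081, adjusted p = 0.00164 in limma). Zfp428, a zinc finger gene 155.4 kb away and next to Cadm4, rose from 11.8 to 17.3 FPKM (log2 fold change 0.52, standard error 0.047, adjusted p = 0.000206). Both held their calls in every alternative in which they were tested. The other 3 calls were lost in several alternatives: Phldb3 (log2 fold change -0.24, adjusted p = 0.0639), Zfp112 (-0.27, adjusted p = 0.0860) and Smg9 (0.18, adjusted p = 0.0679), the last with overlapping groups. The neighbours of Lypd5 that passed thus changed in both directions.

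**Figure D4:**
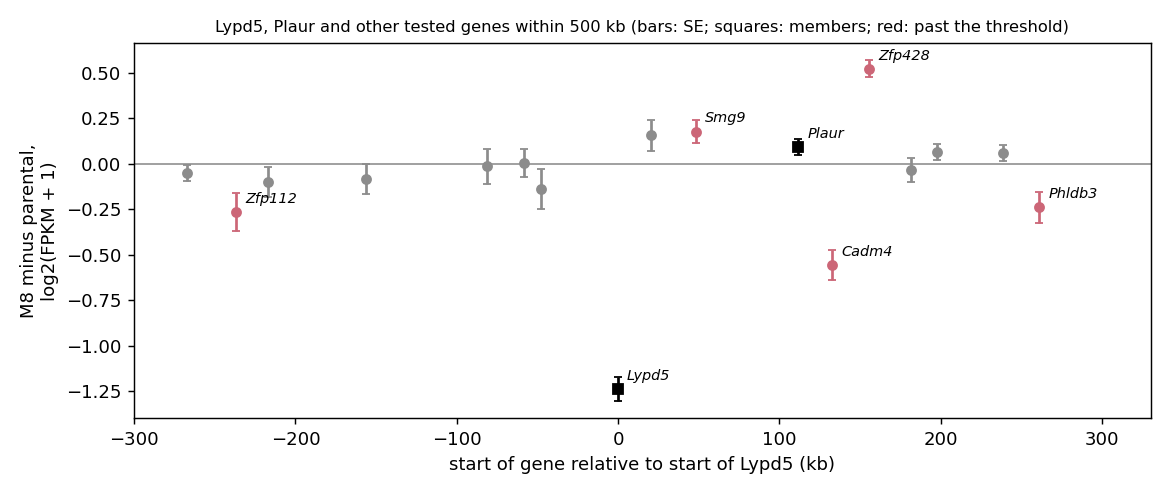
Difference between M8 and parental means in log2(FPKM + 1), with its standard error (vertical axis), against the distance of each gene's start from the start of Lypd5 in kb (horizontal axis), for Lypd5 and Plaur (black squares) and the 15 other tested genes within 500 kb (circles, red where past the limma threshold). Lypd5 lies at -1.24, and the 15 others lie between the values of Cadm4 (-0.56) and Zfp428 (0.52).

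On chromosome 15, Ly6d (chr15:74762056-74763567) and Ly6k (chr15:74796874-74799968), both on the minus strand, were near or at 0. Ly6e (chr15:74955025-74959904, plus strand), Ly6a (chr15:74994877-74998031, minus strand) and Ly6c1 (chr15:75044018-75048920, minus strand) were the 3 expressed members there, and their log2 fold changes lay between -0.093 and 0.15. Lypd6b (chr2:49787340-49948849, plus strand) and Cd59a (chr2:104095753-104115410, plus strand) are on chromosome 2.

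Genes that act with the members were taken from lists. Plaur has its ligand, inhibitors and partners in the urokinase system, of which 12 of 22 genes were tested, with 1 higher, 2 lower and 9 not past the threshold (median log2 fold change -0.095), against 21.2% higher and 16.5% lower of all genes. The number lower was 7 with upper-quartile scaling, 6 with TPM and 6 without parental 1, and it was 0 without M8 1. The ligand was nearly absent: Plau, which encodes urokinase, was listed at 0 in 5 samples and at 0.0196 FPKM in parental 2. The ligand vitronectin, encoded by Vtn, was at most 0.176 FPKM. Lrp1, an endocytic receptor that takes part in clearing urokinase from the surface, rose from 66.4 to 81.7 FPKM (log2 fold change 0.30, adjusted p = 0.0104 in limma).

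Mrc2, a collagen receptor that associates with the urokinase receptor, fell from 25.1 to 21.4 FPKM (log2 fold change -0.22, adjusted p = 0.0454 in limma), and the integrin gene Itga3 fell from 29.2 to 25.5 FPKM (log2 fold change -0.19, adjusted p = 0.0352). Without M8 1 neither of the pair passed (adjusted p = 0.148 and 0.127), and without parental 2 neither did (0.137 and 0.109). Plat, which encodes the tissue plasminogen activator, had 8.72 and 8.55 FPKM in parental and M8 cells and did not pass (adjusted p = 0.840 in limma).

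Cd59a acts with other complement regulators. Of 22 complement regulator and component genes 9 were tested, with 3 higher, 2 lower and 4 not past the threshold (median log2 fold change 0.027), where 21.2% and 16.5% of all genes were higher and lower. Cr1l, which encodes the membrane regulator Crry of the mouse, rose from 28.5 to 35.6 FPKM (log2 fold change 0.31, adjusted p = 0.00288 in limma), whereas Cd55, which encodes decay-accelerating factor, was listed at 0 in all samples. C1ra, a protease of the classical pathway, rose from 27.4 to 34.7 FPKM (log2 fold change 0.33, adjusted p = 0.00174). C4b fell from 2.45 to 1.42 FPKM (log2 fold change -0.51, adjusted p = 0.00388), and Serping1, which encodes the C1 inhibitor, fell from 1.86 to 1.20 FPKM (log2 fold change -0.37, adjusted p = 0.0643, between 0.0346 and 0.183 over the alternatives). Thus of the membrane-bound regulators Crry was expressed in both lines, and Cd59a, its copy Cd59b, Cd55, Cd55b and Cd46 were near or at 0.

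The GPI list covers genes that make, remodel or cleave the anchor by which most of these proteins are held, and 29 of its 31 genes were tested. Of these, 5 were higher, 4 were lower and 20 did not pass, with a median log2 fold change of -0.095, against the same 21.2% and 16.5% of all genes. The balance turned with the scaling, to 3 higher and 7 lower with TPM and 3 and 10 with upper-quartile scaling. Pgap2, needed for remodelling of the anchor's lipid, fell from 13.0 to 10.2 FPKM (log2 fold change -0.31, adjusted p = 0.0230 in limma), and Pigs, a subunit of the transamidase that attaches the anchor, fell from 34.4 to 28.5 FPKM (log2 fold change -0.26, adjusted p = 0.00316). Pgap3, also a lipid remodelling gene, rose from 2.40 to 3.02 FPKM (log2 fold change 0.25, adjusted p = 0.0904), a call lost in 8 alternatives.

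Ly6a, Ly6c1 and Ly6e are known as interferon-inducible, and 14 other interferon-stimulated genes were set beside them. This list was written with its direction in these samples known, so neither its count nor its smallest value is independent evidence. All 14 were higher, against 21.2% of all genes tested, with a median log2 fold change of 0.496. Examples are Gbp3 (25.4 to 45.9 FPKM, log2 fold change 0.84, adjusted p = 0.000326 in limma), Mx1 (1.33 to 2.90 FPKM, 0.75, adjusted p = 0.00274) and Isg15 (303 to 458 FPKM, 0.60, adjusted p = 0.000163). Ly6e (0.15), Ly6c1 (0.035) and Ly6a (-0.093) all lay below the smallest value of the list, that of Rtp4 (0.19).

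**Figure D5:**
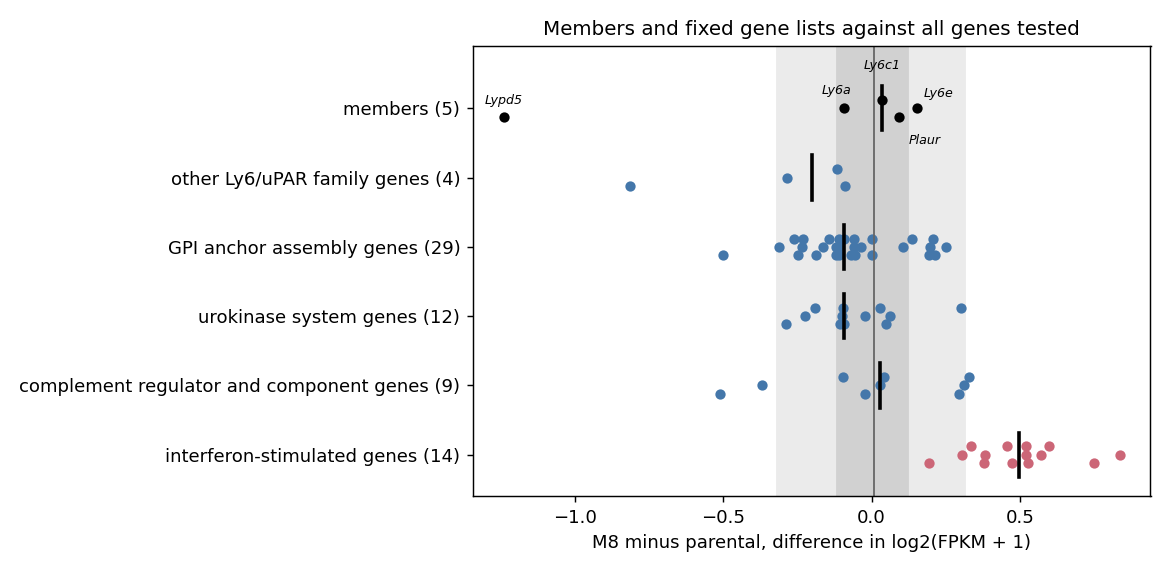
Difference between M8 and parental means in log2(FPKM + 1) (horizontal axis) of each tested gene, for the 5 expressed members and 5 gene lists (rows, with the number tested), with the median of each row as a black bar. The dark and light grey bands span the 25th to 75th and the 5th to 95th percentile of all 10597 genes tested, and Lypd5 lies far to the left of both.

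The labelled tissue is colon, and the lines were checked against cell type markers. Of 10 colon epithelial markers, 3 were expressed (Krt18, Krt20 and Lgals4), and the defining markers Epcam, Cdh1, Cdx2 and Krt19 were listed at 0 in all samples. Summed over the 10, they ranged from 41.9 to 57.7 FPKM in parental samples and from 48.2 to 50.2 FPKM in M8. Like Lypd5, Krt20 fell, from 17.4 to 11.9 FPKM (log2 fold change -0.50, adjusted p = 0.00438 in limma), and so did Lgals4, from 1.68 to 0.680 FPKM (log2 fold change -0.66, adjusted p = 0.00728). Krt18, the most abundant of the 10, had 32.5 and 36.4 FPKM in parental and M8 cells and did not pass (log2 fold change 0.18, adjusted p = 0.321 in limma). The part of these markers in the difference of Lypd5 was not tested. Of 5 mesenchymal markers, 4 were expressed, with a sum of 2580 to 3040 FPKM in parental samples and 2730 to 2820 FPKM in M8, and Thy1 was at 0. The mesenchymal marker Fn1 fell from 622.39 to 488.41 FPKM (log2 fold change -0.35, adjusted p = 0.000917 in limma), and the other 3 expressed ones did not pass.

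For Ly6a, Ly6c1 and Ly6d, which also mark blood cells, the T and B cell markers were near 0 and most myeloid markers were too. The sum of 5 T cell markers was at most 0.161 FPKM and that of 3 B cell markers at most 0.274 FPKM in any sample, and Cd3e, Cd8a, Ms4a1, Csf1r and Adgre1 were at 0. The 6 myeloid markers summed to 15.8 to 16.8 FPKM in parental samples and 17.5 to 19.0 FPKM in M8, nearly all of it Cd14. Cd14 rose from 16.05 to 17.96 FPKM (log2 fold change 0.15, adjusted p = 0.0489 in limma), with all M8 samples above the parental ones, and its part in the values of Ly6e, Ly6a and Ly6c1 was not tested. The 4 endothelial markers summed to at most 0.571 FPKM. Set beside Lypd3 and Slurp1, 7 squamous markers summed to 1.95 to 2.56 FPKM in parental samples and 1.87 to 2.34 FPKM in M8. Most of each sum was Krt10.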

How the data were processed

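Stranded mRNA libraries were prepared from 3 parental and 3 M8 samples. The authors mapped reads to mm10 and deposited FPKM values per gene symbol, and the submitters' processing notes name TopHat2 2.1.1, Bowtie2 2.2.8, SAMtools 0.1.18 and Cuffdiff 2.2.1. The gene annotation is not given in the sources used here. The study's own comparison used read counts and was left out here.

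Fold changes and adjusted p-values came from limma 3.58.1 in R 4.3.3 (eBayes, with the trend of variance on mean) applied to log2(FPKM + 1), for genes averaging 1 FPKM or more, with Benjamini-Hochberg adjustment over all of them and a threshold of 0.1. An exact two-sided permutation test of 3 against 3 cannot go below p = 0.1 and was not used. The fit was tested on simulated data.

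The members and lists were chosen with earlier results of these data known. Named genes are the members, the family genes averaging 1 FPKM or more, in each list the 3 called genes with the largest change, Plau, Vtn, Plat, Cr1l and Cd55, the called neighbours of Lypd5, and the 5 genes most like it. A further gene that the rule covers is not reported here. Kcnn4, Rtp4, Bpifc, Cd59b, Cd55b and Cd46 were named after their values were seen. Depth was estimated in genes with 1 transcript as reads over transcript length less 200 bases, and 80.0% to 85.2% of the values used came within 0.15 of a whole read. Gene positions and promoters are RefSeq (GRCm38.p6), and promoter windows of Lypd3, Plaur, Cd59a and Ly6c1 were also searched. Plaur and Lypd3 held GC boxes, Plaur an AP-1 and an NF-kB match, Cd59a an ISRE core, and Ly6c1 NF-kB and TATAAA matches. None of these windows held an E-box. Coding sequences are GENCODE vM21. Python 3.11.15, pandas 2.3.3, Biopython 1.88 and matplotlib 3.10.9 were used. The alternatives were a pseudocount of 0.1, no filter, a limit of 5 FPKM, TPM, quantile, upper-quartile and median scaling, eBayes without a trend, a replicate block, and leaving out each replicate.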

Additional observations from a re-analysis of the deposited data

How the results depend on the processing

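The log2 fold change of Lypd5 lay between -1.38 and -1.2 over 16 settings, that of Ly6e between 0.0595 and 0.163, that of Plaur between 0.0103 and 0.119 and that of Ly6a between -0.195 and -0.0494, and only Ly6c1 among the expressed members changed sign (-0.0424 to 0.0552). Calls in the lists varied more. With upper-quartile scaling 1470 genes were higher and 2769 lower over all genes tested, the GPI list had 3 higher and 10 lower, the urokinase list 7 lower and the neighbours of Lypd5 1 higher. With TPM the GPI list had 3 higher and 7 lower, the urokinase list 6 lower and the neighbours 1 higher. With quantile normalization the urokinase list had 5 lower, the complement list 1 lower and the neighbours 1 higher and 1 lower. With no filter the other family genes had 0 lower (by limma, adjusted p of Slurp1 0.147), the GPI list 3 higher, the urokinase and complement lists 1 lower each and the neighbours 1 higher. With a mean FPKM of at least 5 the other family genes, the complement list and the neighbours had 0 lower, because their lower genes were then not tested. The cause of the other shifts was not tested.

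With each replicate left out in turn, the counts ranged from 1609 to 2101 higher and from 1157 (without M8 1) to 1672 lower over all genes, from 0 to 1 lower in the other family genes, from 3 to 5 higher in the GPI list, from 0 (without M8 1) to 6 (without parental 1) lower in the urokinase list, from 1 to 2 lower in the complement list, and from 1 to 2 both higher and lower in the neighbours. The interferon-stimulated list kept 13 to 14 higher. Same-numbered samples showed no shared deviation (correlations of 0.1, -0.106 and -0.0326), and pairs with different numbers lay between -0.128 and 0.181. With 3 samples per line these correlations cannot exclude a pairing. With the replicate number as a block, 2171 genes were higher and 1688 lower, and Zfp112 did not pass (adjusted p = 0.131 in limma). In this balanced design a block leaves each fold change as it is and alters only its error. Of the named genes that are no members, 373 values kept their side of the threshold or moved little, 43 lost it, 5 gained it and 3 moved further.

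Depth limits what can be said of Ly6d, Cd59a and Lypd6b, which rest on a few reads at most.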
